A study of Homo sapiens with 6 samples.

Results

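The CCT chaperonin, also called TRiC, is the ATP-driven folding machine of the eukaryotic cytosol, and its 8 subunits are encoded by the genes TCP1, CCT2, CCT3, CCT4, CCT5, CCT6A, CCT7 and CCT8. These genes were taken by symbol, and all 8 were found among the 17104 genes of the deposited count table and passed the filter on low counts. Gene expression had been measured by RNA-seq in HBMEC, which the labels give as a line of brain endothelial cells. There were 3 libraries from cells after OGD/R and 3 from control cells. OGD/R stands for oxygen-glucose deprivation followed by reperfusion, a culture model of ischaemia that takes away oxygen and glucose for a time and then restores them, and control cells were kept in normal culture. The sample titles carry only the marks OGD and CON with a number, and the sources used here give no duration for either phase. Separate cultures behind the libraries are not stated in the labels, and the p-values then cover only the spread among these 6 samples, possibly a technical one.

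Each CCT ring is built from 1 copy of each of the 8 subunits, and rings stack back to back around a pair of folding chambers. The complex takes newly made actin and tubulin chains, often handed over by the co-chaperone prefoldin, encloses them and releases them folded after ATP hydrolysis. Proteins with WD40 propeller domains, such as the mitotic activator CDC20 and the beta subunits of G proteins, are further known clients. The cytoskeleton of endothelial cells, which holds their junctions and shape, is built from these actins and tubulins.

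The libraries held 31048662 to 34484647 counts, and mitochondrially encoded genes took 5.04% to 5.33% of them after OGD/R and 4.94% to 5.12% in control. Of 12 endothelial marker genes only CDH5, ESAM, ROBO4 and EGFL7 had a row, and these summed to 203 to 210 CPM (counts scaled to library size by TMM) after OGD/R and 198 to 215 CPM in control. Of the 4, CDH5, the endothelial cadherin, was higher (18.1 ± 3.17 CPM after OGD/R and 10.3 ± 1.00 CPM in control, SD, n = 3 each), ROBO4 was lower (3.79 ± 0.83 CPM after OGD/R and 6.36 ± 0.35 CPM in control), and ESAM and EGFL7 did not pass. The defining endothelial genes PECAM1, VWF, TEK, KDR and ERG had no row, so they were not analysed here. Every gene with a row had at least 10 counts in 3 libraries, and whether the missing ones fell below that is not known. Of 10 epithelial markers 8 had a row, and they summed to 3048 to 3104 CPM after OGD/R and 2485 to 2711 CPM in control, with 4 of the 8 higher and 0 lower. Most of this sum came from the keratins KRT8, KRT18 and KRT7, which were all higher. ELF3 was higher too, at a mean of 47.0 CPM after OGD/R and 41.2 CPM in control. EPCAM (57.7 CPM after OGD/R and 52.3 CPM in control), ESRP1 (37.4 and 42.2 CPM) and CLDN4 (17.8 and 21.2 CPM) were also expressed and did not pass. The defining epithelial cadherin CDH1 was at 0.98 ± 0.15 CPM after OGD/R and 1.19 ± 0.09 CPM in control and did not pass. KRT19 and GRHL2 had no row. In every library the summed epithelial markers thus stood above the summed endothelial ones, and the cell identity given by the labels was not tested. The part of these markers in the results was not tested either. Markers of pericytes or fibroblasts (3 of 8 with a row, 17.1 to 24.2 CPM after OGD/R and 20.7 to 22.3 CPM in control) and of leukocytes (2 of 6, 4.70 to 5.22 CPM after OGD/R and 3.81 to 6.001 CPM in control) stayed low, and 0 of them passed the test in either direction. Pairs of libraries of 1 group differed by a chi-square of 4.07 to 7.42 per degree of freedom over genes, more than sampling noise, so all 6 were kept as separate samples.

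All 8 CCT genes were higher after OGD/R. Their log2 fold changes lay within a narrow band of 0.21 to 0.32, that is 1.16-fold to 1.25-fold, with a median of 0.29. Every one of them passed edgeR's quasi-likelihood test, with adjusted p from 3.33e-08 for TCP1 to 7.06e-05 for CCT6A. For each of the 8 genes, all OGD/R libraries lay above all control libraries. Over all 17104 genes, 10.2% were called higher, 9.48% were called lower and 19.7% were called in either direction, their median log2 fold change was -0.0046, and in 16.4% all OGD/R libraries lay above all control libraries. Under total-count scaling, 39.7% of the called genes were higher in place of 51.9%, and the median of the 8 CCT genes was 0.26.

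**Figure D1:**
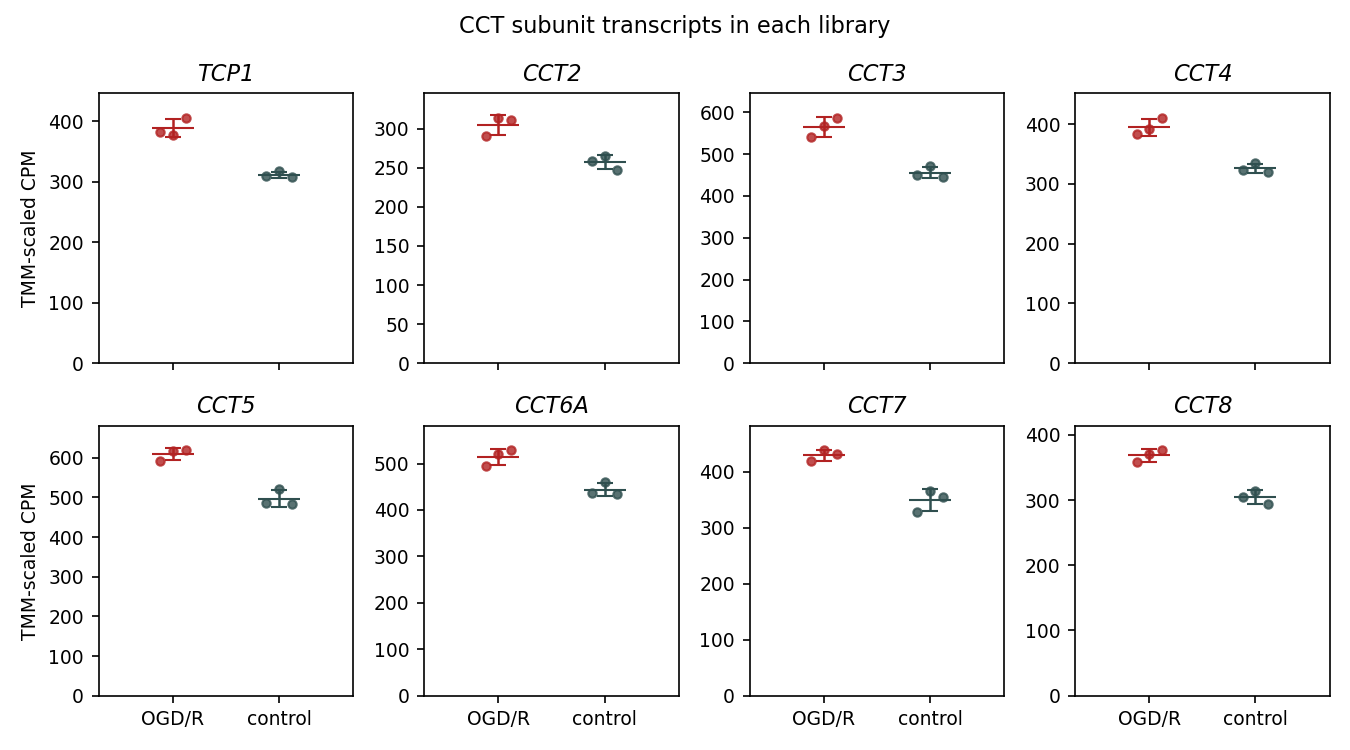
TMM-scaled CPM of each CCT subunit gene in the 3 OGD/R libraries and the 3 control libraries; points are libraries, the horizontal line is the group mean, the bars are ± SD, and each axis starts at 0. In all 8 panels the OGD/R points lie above the control points.

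The CCT genes are highly expressed, and this bears on how their count is read. By mean CPM they ranked from 194 to 516 of 17104. Among the 516 genes at least as abundant as the lowest of them, CCT2, 42.2% were called higher, 16.5% were called lower and the median log2 fold change was 0.09. By size of the fold change the 8 genes ranked from 1740 for TCP1 to 2980 for CCT6A of 17104. That order includes genes that did not pass, such as CCT6B at 2283, so a rank does not count genes that rose more. In all, 1749 genes were called higher.

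TCP1 (ENSG00000120438) encodes the alpha subunit, the founding member of the family. It was at 383, 377 and 405 CPM in the OGD/R libraries and at 309, 317 and 307 CPM in the control libraries. The means were 388 ± 15.0 CPM after OGD/R and 311 ± 5.23 CPM in control (SD, n = 3 each), a log2 fold change of 0.32 ± 0.04 (SE), the largest of the 8. OGD/R replicate 3 was the highest library, and the lowest OGD/R library was well above the highest control library.

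The 3' end of TCP1 overlaps that of ACAT2, an acetyl-CoA acetyltransferase gene on the opposite strand. In GENCODE 29 the overlap covers 8.05% of the exon bases of TCP1. The strand setting of the counting is not known, so reads in the overlap cannot be assigned with certainty. ACAT2 was at 99.7 ± 1.60 CPM after OGD/R and at 54.6 ± 1.79 CPM in control, a log2 fold change of 0.87. The difference between the group means was 77.3 CPM for TCP1 and 45.1 CPM for the reads counted to ACAT2. The part of overlap reads in either difference was not tested.

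CCT2 (ENSG00000166226), the beta subunit, was the least abundant by CPM. Its libraries were at 291, 314 and 311 CPM after OGD/R and at 259, 266 and 247 CPM in control. The means were 305 ± 12.6 CPM after OGD/R and 257 ± 9.37 CPM in control (SD, n = 3 each), a log2 fold change of 0.25 ± 0.04 (edgeR adjusted p = 1.38e-05). OGD/R replicate 1 was lower than the other two OGD/R libraries and still above every control library.

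CCT3 (ENSG00000163468), the gamma subunit, was at 539.7, 566 and 586 CPM in the OGD/R libraries and at 451, 470.4 and 445 CPM in the control libraries. The means were 564 ± 23.4 CPM after OGD/R and 455 ± 13.4 CPM in control (SD, n = 3 each), and the log2 fold change of 0.31 ± 0.04 came next to that of TCP1. The groups were separated by more than the spread within either.

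CCT4 (ENSG00000115484) encodes the delta subunit, one of the subunits that bound actin touches. It was at 383, 392 and 410.3 CPM after OGD/R and at 323, 335 and 319.7 CPM in control. Its means were 395 ± 14.0 CPM after OGD/R and 326 ± 8.03 CPM in control (SD, n = 3 each), and its log2 fold change was 0.28 ± 0.04 (edgeR adjusted p = 7.79e-07). Other annotated genes overlap 12.6% of its exon bases: COMMD1, head to head with it, and an antisense gene (ENSG00000236498). Neither passed the test, with COMMD1 at 14.8 ± 1.26 CPM after OGD/R and 13.5 ± 2.06 CPM in control, and the antisense gene under 1 CPM in every library.

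CCT5 (ENSG00000150753), the epsilon subunit, whose inherited variants are known from a human sensory neuropathy, was the most abundant by CPM. It was at 592, 618 and 618 CPM after OGD/R and at 485, 522 and 483 CPM in control. The means were 609 ± 15.2 CPM after OGD/R and 497 ± 22.0 CPM in control (SD, n = 3 each), a log2 fold change of 0.29 ± 0.04 (edgeR adjusted p = 2.07e-07). Control replicate 2 was the highest control library here, as it was for all 8 genes. An antisense gene without a row, not analysed here, overlaps 30.1% of the exon bases of CCT5.

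CCT6A (ENSG00000146731), the zeta subunit, had the smallest rise. Its libraries were at 495, 521 and 528 CPM after OGD/R and at 436, 459.9 and 435 CPM in control. The means were 515 ± 17.2 CPM after OGD/R and 444 ± 14.1 CPM in control (SD, n = 3 each), a log2 fold change of 0.21 ± 0.04 (edgeR adjusted p = 7.06e-05). The 95% interval of its log2 fold change was 0.14 to 0.29, and that of TCP1 was 0.24 to 0.40. These intervals overlapped, and the difference between the subunits' fold changes was not tested.

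CCT7 (ENSG00000135624), the eta subunit, was at 419, 438 and 432 CPM after OGD/R and at 328, 366 and 356 CPM in control. The means were 429.7 ± 10.02 CPM after OGD/R and 349.9 ± 19.8 CPM in control (SD, n = 3 each), a log2 fold change of 0.30 ± 0.04. Control replicate 1 was lower than the other two control libraries. CCT8 (ENSG00000156261), the theta subunit, was at 358, 371 and 376 CPM after OGD/R and at 305, 314 and 293 CPM in control. Its means were 368 ± 9.43 CPM after OGD/R and 304 ± 10.5 CPM in control (SD, n = 3 each), and its log2 fold change was 0.28 ± 0.04.

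**Figure D2:**
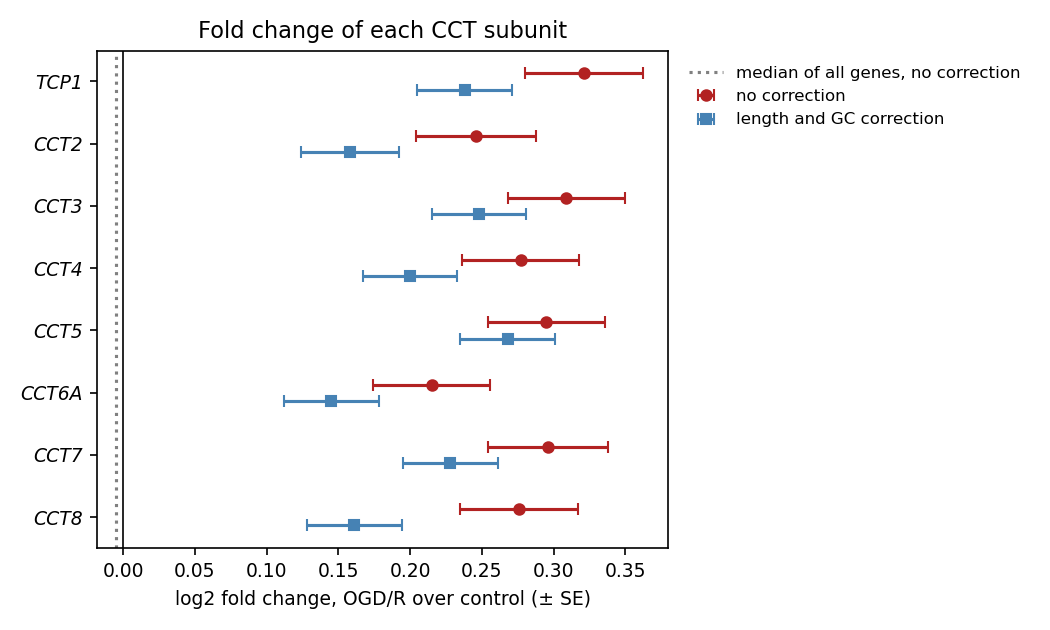
Log2 fold change of each CCT subunit gene, OGD/R over control, with bars of ± SE, without correction (circles) and after removal of length and GC trends (squares). All 16 values lie right of 0, between 0.14 and 0.32, and each corrected value is the smaller of its pair.

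Summed over the 8 subunits, the libraries held 3459.6, 3597 and 3668 CPM after OGD/R and 2897, 3050.3 and 2886 CPM in control. The mean sum was 3575 ± 106 CPM after OGD/R and 2944 ± 92.0 CPM in control (SD, n = 3 each), a log2 ratio of 0.28. In these bulk samples, a change in the make-up of the cells and a change in RNA per cell cannot be told apart.

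The make-up of this pool moved little. In single libraries the subunits' shares of the sum ran from 8.40% for CCT2 to 17.2% for CCT5. For 6 of the 8 genes the shares of the OGD/R libraries overlapped those of the control libraries. CCT6A was an exception, with 14.3%, 14.5% and 14.4% of the sum after OGD/R and 15.06%, 15.08% and 15.07% in control, a difference of -0.67 percentage points. CCT3 was the other, with 15.60%, 15.75% and 15.98% after OGD/R and 15.56%, 15.42% and 15.42% in control, a difference of 0.31 percentage points. Shares are bound to sum to 100%, so a lower share of one subunit raises the others, and they were described without a test. In yeast, TCP1, CCT2, CCT4 and CCT5 bind ATP tightly and the other subunits weakly; the genes of either kind had a median log2 fold change of 0.29.

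**Figure D3:**
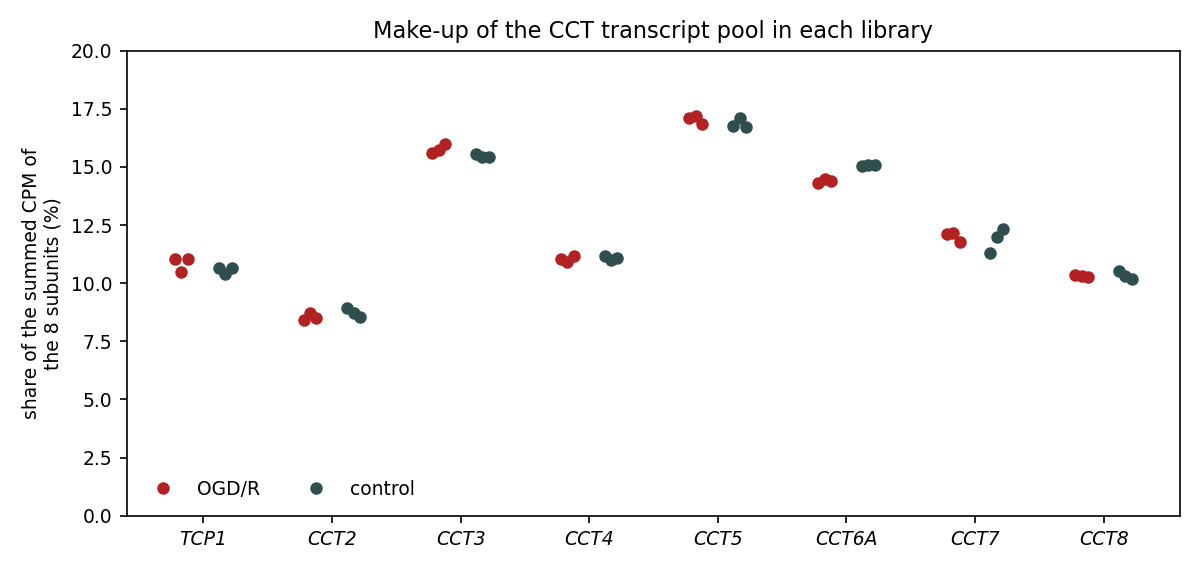
Share of each CCT subunit gene in the summed TMM-scaled CPM of the 8 genes, in percent, with 1 point per library, for OGD/R (left of each pair) and control (right). Only for CCT3 and CCT6A do the points of the groups not overlap, and the gaps are under 1 percentage point.

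Levels can be compared between subunits only per length, here as CPM per kilobase of the principal transcript in GENCODE 29. CCT3 was highest, at 262 ± 10.9 CPM per kilobase after OGD/R and 212 ± 6.22 in control (SD, n = 3 each). CCT7 followed at 224 ± 5.23 CPM per kilobase after OGD/R and 183 ± 10.3 in control, and its libraries stood apart from those of CCT3 in both groups. CCT6A, at 189 ± 6.32 CPM per kilobase after OGD/R and 163 ± 5.17 in control, and CCT8, at 184 ± 4.71 after OGD/R and 152 ± 5.22 in control, came next, and after OGD/R their libraries overlapped.

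The lower end of the order was close. CCT5 was at 166 ± 4.14 CPM per kilobase after OGD/R and 135 ± 5.98 in control, and CCT4 was at 157 ± 5.56 after OGD/R and 129 ± 3.19 in control, with libraries that overlapped those of CCT5 in both groups. TCP1 was at 155 ± 6.01 CPM per kilobase after OGD/R and 124 ± 2.09 in control, and CCT2 was at 149.5 ± 6.19 after OGD/R and 126 ± 4.59 in control. After OGD/R the libraries of CCT4, TCP1 and CCT2 overlapped, and in control those of CCT2 overlapped both others. In control the libraries of CCT4 (from 126.9 CPM per kilobase) and of TCP1 (up to 126.8) nearly met. The transcript of CCT5 is annotated with 3675 bases against 1916 to 2719 bases for the other genes, so its place rests on cells using that transcript.

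Transcript length also moved with the fold change. Protein-coding genes with a mean log2 CPM above 2, 10848 in number, were split by length into 10 equal groups. The shortest group had a median log2 fold change of 0.13 and the longest one of -0.10. In the 2 groups that hold CCT2, CCT3, CCT7 and CCT8, and TCP1, CCT4 and CCT6A, 24.9% and 20.9% of genes were called higher, with medians of 0.08 and 0.06. In the group that holds CCT5, 14.5% were called higher, with a median of 0.01. After a trend on length and GC content had been removed from each library, the log2 fold changes of the 8 CCT genes were 0.14 to 0.27 and all 8 still passed, with adjusted p up to 0.000665. CCT2 was then at 0.16 in place of 0.25, CCT8 at 0.16 in place of 0.28 and CCT6A at 0.14 in place of 0.21, while CCT5, at 0.27 in place of 0.29, moved least. With this correction 10.4% of all genes were called higher, and 48.4% of the 516 genes at least as abundant as CCT2.

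**Figure D4:**
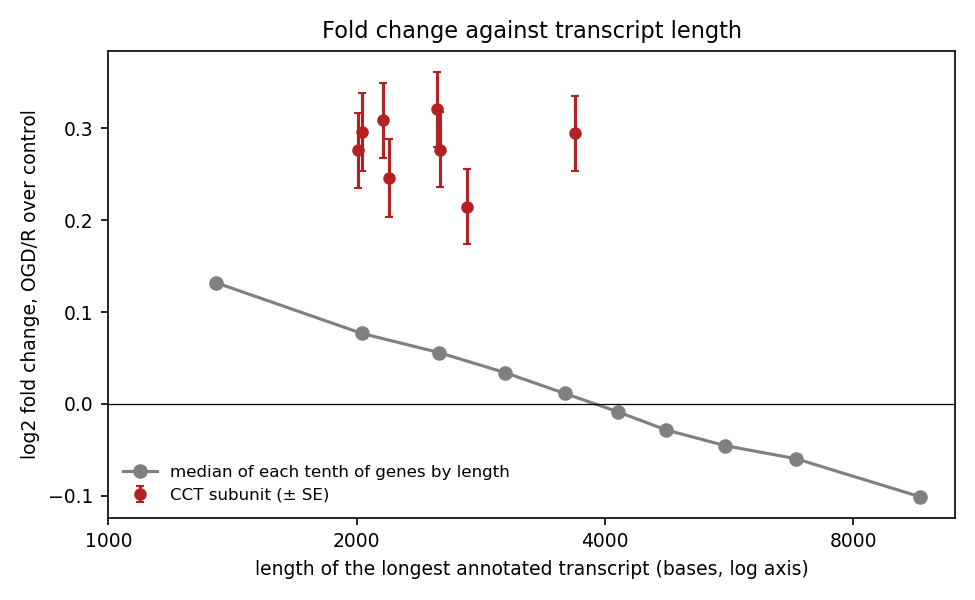
Log2 fold change, OGD/R over control, against the length of the longest annotated transcript on a log axis, for the 8 CCT subunit genes (red, ± SE) and for the medians of 10 groups of genes of rising length (grey line). The red points lie between 0.21 and 0.32, above the grey line, which falls with length from 0.13 to -0.10.

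Since the 8 genes lie on different chromosomes or far apart and moved together, the sequence before their starts was read from RefSeq (GRCh38.p14), in which 7 of the 8 genes matched an entry, CCT6A being the other. The 250 bases before the most upstream start are shown for the genes that hold both a CCAAT box and a GC box. Each is written 5' to 3' on the strand of its gene, with capitals at every match to a searched motif.
TCP1, chr6:159789603-159789852, minus strand: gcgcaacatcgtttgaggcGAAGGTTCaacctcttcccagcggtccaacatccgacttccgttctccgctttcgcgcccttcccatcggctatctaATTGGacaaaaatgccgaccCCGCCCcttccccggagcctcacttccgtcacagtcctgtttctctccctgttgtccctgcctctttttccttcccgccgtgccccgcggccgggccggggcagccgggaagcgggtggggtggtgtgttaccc
CCT2, chr12:69585209-69585458, plus strand: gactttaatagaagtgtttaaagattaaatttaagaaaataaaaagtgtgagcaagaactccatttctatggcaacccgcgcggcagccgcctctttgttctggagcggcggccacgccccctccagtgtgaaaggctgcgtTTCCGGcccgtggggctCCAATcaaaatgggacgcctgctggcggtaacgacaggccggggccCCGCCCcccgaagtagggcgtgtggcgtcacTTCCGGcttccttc
CCT3, chr1:156338293-156338542, minus strand: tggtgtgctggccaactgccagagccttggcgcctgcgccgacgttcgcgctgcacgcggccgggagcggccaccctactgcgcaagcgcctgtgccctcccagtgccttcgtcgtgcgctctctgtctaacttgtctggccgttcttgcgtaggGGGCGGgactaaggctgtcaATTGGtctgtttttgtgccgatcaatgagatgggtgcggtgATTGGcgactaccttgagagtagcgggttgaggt
CCT8, chr21:29073649-29073898, minus strand: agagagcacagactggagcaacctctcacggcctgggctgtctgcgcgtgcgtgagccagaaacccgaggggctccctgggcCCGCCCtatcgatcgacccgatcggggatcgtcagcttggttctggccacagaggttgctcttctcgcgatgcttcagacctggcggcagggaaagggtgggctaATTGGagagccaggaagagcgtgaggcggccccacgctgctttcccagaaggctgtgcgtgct
The motifs, searched on both strands, were CCAAT, the GC box GGGCGG, the ETS core CCGGAA, the E-box CACGTG, and 2 forms of the heat shock element, GAANNTTC and TTCNNGAA. No matches overlapped in the sequences shown. Transcripts of the same gene in GENCODE 29 start further upstream and cover 124 to 172 bases of these windows. They also cover 132 bases of the window of CCT4, 160 of that of CCT5 and 71 of that of CCT7, which are not shown. Part of every window searched is thus transcript sequence. The window of CCT5 opens inside such a transcript, so the bases before that transcript were not searched.

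CCAAT was present in 4 of the 7 windows, those of TCP1, CCT2, CCT3 and CCT8, and in 33.0% of 27303 windows of all genes. The same 4 genes held GGGCGG, which was in 42.2% of all windows. CCGGAA was in the windows of CCT2, where it occurs in reverse complement as ttccgg at 2 places, and CCT5, and in 14.8% of all. GAANNTTC was found only for TCP1, as gaaggttc, and in 5.85% of all windows. TTCNNGAA and CACGTG were in 0 of the 7 windows, and in 6.72% and 6.46% of all. The windows of CCT4 and CCT7, whose log2 fold changes were 0.28 and 0.30, held 0 of these motifs. A match is a description of letters, not of a bound site, and an absence covers only the window searched.

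Genes that lie beside the subunits were read for comparison. Of 11 annotated neighbours with a row, ACAT2 and MRPL18 beside TCP1 passed as higher, SUMF2 beside CCT6A passed as lower, and 8 did not pass. Over all genes, 19.7% were called in either direction. MRPL18, a mitochondrial ribosomal protein gene, had a log2 fold change of 0.18 ± 0.06, and SUMF2 one of -0.17 ± 0.04. The groups overlapped for MRPL18, with OGD/R replicate 1 at 56.1 CPM and control replicate 2 at 56.8 CPM. PSPH, the phosphatase of serine synthesis that starts beside CCT6A on the opposite strand, was at 46.1 ± 2.46 CPM after OGD/R and 50.6 ± 1.81 CPM in control (SD, n = 3 each, edgeR adjusted p = 0.142). Of the rows named as CCT pseudogenes, CCT8P1 was at 4.12 ± 1.35 CPM after OGD/R and 3.09 ± 0.33 CPM in control, and both rows named CCT6P3 were under 2 CPM in every library. The rule for reads that match both a gene and its pseudogene is not known.

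The folding partners and clients of the chaperonin were followed in 9 lists with 74 measured genes, chosen with earlier results of these data known. Of these, 33 rose (44.6%) and 5 fell, with a median log2 fold change of 0.13. Over all genes 10.2% were higher and 9.48% lower, and 42.2% were higher among the 516 abundant genes described above. Many of the 74 are less abundant than those 516, so neither background matches the lists in expression. Prefoldin, the jawed co-chaperone that delivers actin and tubulin, had 3 of 6 subunit genes higher and 0 lower, with a median of 0.25. VBP1 was at 111, 115 and 112 CPM in the OGD/R libraries and at 88.6, 88.4 and 83.9 CPM in the control libraries, a log2 fold change of 0.37 ± 0.05. PFDN6 (0.39 ± 0.11) and PFDN1 (0.26 ± 0.06) rose too, although PFDN1 did not pass after the length and GC correction (0.13, edgeR adjusted p = 0.105), and PFDN6 did not pass without OGD/R replicate 3 (0.31, adjusted p = 0.0634) or without control replicate 1 (0.28, adjusted p = 0.0808). PFDN2 had a value of -0.08 ± 0.07, and passed as lower after the length and GC correction (-0.28, adjusted p = 0.00119).

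Of the phosducin-like proteins, which bind CCT, 2 of 3 measured genes rose and 0 fell. PDCL3 was at 17.4, 22.7 and 20.3 CPM after OGD/R and at 15.3, 13.3 and 14.04 CPM in control, a log2 fold change of 0.50 ± 0.10 (edgeR adjusted p = 0.000164). TXNDC9 rose by 0.30 ± 0.07, and it did not pass after the length and GC correction (0.14, adjusted p = 0.127). PDCL had a value of 0.11 ± 0.07.

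Among the chaperonin relatives, 3 of 6 measured genes rose and 0 fell. The mitochondrial chaperonin HSPD1 was at 653 ± 22.7 CPM after OGD/R and 566 ± 26.3 CPM in control (SD, n = 3 each, log2 fold change 0.21 ± 0.04), and its lid HSPE1 was at 21.4 ± 2.50 CPM after OGD/R and 14.1 ± 0.57 CPM in control (0.60 ± 0.10). MKKS, a chaperonin-like protein of the Bardet-Biedl syndrome group that works with CCT in assembling the BBSome, rose by 0.32 ± 0.08, while its partners BBS10 (-0.17 ± 0.09) and BBS12 (0.23 ± 0.16) did not pass; BBS10 passed as lower after the length and GC correction (-0.23, edgeR adjusted p = 0.0496). CCT6B, the testis-enriched sister of CCT6A, was at 0.42 ± 0.36 CPM after OGD/R and 0.35 ± 0.14 CPM in control (adjusted p = 0.819), and its direction turned without OGD/R replicate 3.

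The actins, the main clients, differed among themselves. ACTB, cytoplasmic beta-actin, was at 5853, 5732 and 5639 CPM after OGD/R and at 4347, 4656 and 4610.3 CPM in control, a log2 fold change of 0.34 ± 0.04 (edgeR adjusted p = 4.40e-09). ACTG1, its close relative gamma-actin, was at 3845 ± 31.9 CPM after OGD/R and 3721 ± 141 CPM in control (SD, n = 3 each), with a value of 0.05 ± 0.04 (adjusted p = 0.463). Near-identical coding sequence can move reads between these genes.

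Of 16 measured tubulin genes, 8 rose and 0 fell, with a median of 0.20. They were the 8 with the highest mean CPM, among them TUBA1B, at 515, 507 and 539.5 CPM after OGD/R and 348, 431 and 374 CPM in control (0.44 ± 0.06), TUBA1C (0.34 ± 0.04), TUBB4B (0.32 ± 0.04), TUBA1A (0.31 ± 0.04) and TUBB (0.17 ± 0.04). Tubulin genes resemble one another, and their reads can be shared. The 7 genes listed as tubulin cofactors include those that join folded alpha and beta chains into dimers downstream of CCT. Of the 7, TBCB rose (0.29 ± 0.06) and 6 did not pass. Without OGD/R replicate 1, TBCA passed as well (0.20, edgeR adjusted p = 0.0211). After the length and GC correction, TBCD passed as higher (0.20, edgeR adjusted p = 9.37e-05) and ARL2 as lower (-0.18, adjusted p = 0.0391).

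Of 15 other reported clients, 7 rose and 2 fell. The higher count was 5 under total-count scaling, without OGD/R replicate 1 and without OGD/R replicate 3, where GNB1 and STAT3 did not pass. The mitotic activator CDC20 was at 221, 206 and 221 CPM after OGD/R and at 147, 156 and 153 CPM in control, a log2 fold change of 0.51 ± 0.04, and the mitotic kinase PLK1 rose by 0.49 ± 0.05. GNB2, a G protein beta subunit, rose by 0.35 ± 0.04. VHL, the tumour suppressor that marks HIF for breakdown and needs CCT to fold, was at 88.1 ± 3.21 CPM after OGD/R and 106 ± 4.23 CPM in control (SD, n = 3 each) and fell by 0.27 on the log2 scale. RPTOR, the scaffold of mTORC1, fell by 0.17. It did not pass without OGD/R replicate 3, without control replicate 1 or without control replicate 2 (edgeR adjusted p = 0.0784 to 0.144). In those fits VHL was the 1 lower client. RPTOR did not pass after the length and GC correction either (-0.05, edgeR adjusted p = 0.539). With that correction CCNE1 passed as lower (-0.19, edgeR adjusted p = 0.0272) and FZR1 as higher (0.19, adjusted p = 0.00274). The RPTOR partner MLST8 had a value of 0.04 ± 0.07.

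The cytosolic Hsp70 and Hsp90 system moved in both directions, with 8 of 16 genes higher and 3 lower. HSPB1, a small heat shock protein (0.46 ± 0.04), the Hsp90 gene HSP90AA1 (0.44 ± 0.04) and the Hsp90 co-chaperone PTGES3 (0.36 ± 0.04) rose. HSPA1A, HSPA1B and DNAJB1, the heat-inducible Hsp70 genes and their J-domain partner, fell by 0.21, 0.32 and 0.20 on the log2 scale; HSPA1A and HSPA1B are near-identical and can share reads. HSPA1A did not pass without OGD/R replicate 2 (edgeR adjusted p = 0.0801), nor DNAJB1 without control replicate 3 (adjusted p = 0.0736). After the length and GC correction, HSPA8 passed as lower (-0.11, edgeR adjusted p = 0.00827). With the same correction CDC37 no longer passed as higher (0.08, edgeR adjusted p = 0.121). HSF1 and HSF2, heat shock factors known to drive CCT genes in mammalian cells, had values of -0.09 ± 0.04 (edgeR adjusted p = 0.149) and -0.08 ± 0.08 (adjusted p = 0.549). HSF1 passed under total-count scaling, at -0.12 (adjusted p = 0.0464).

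**Figure D5:**
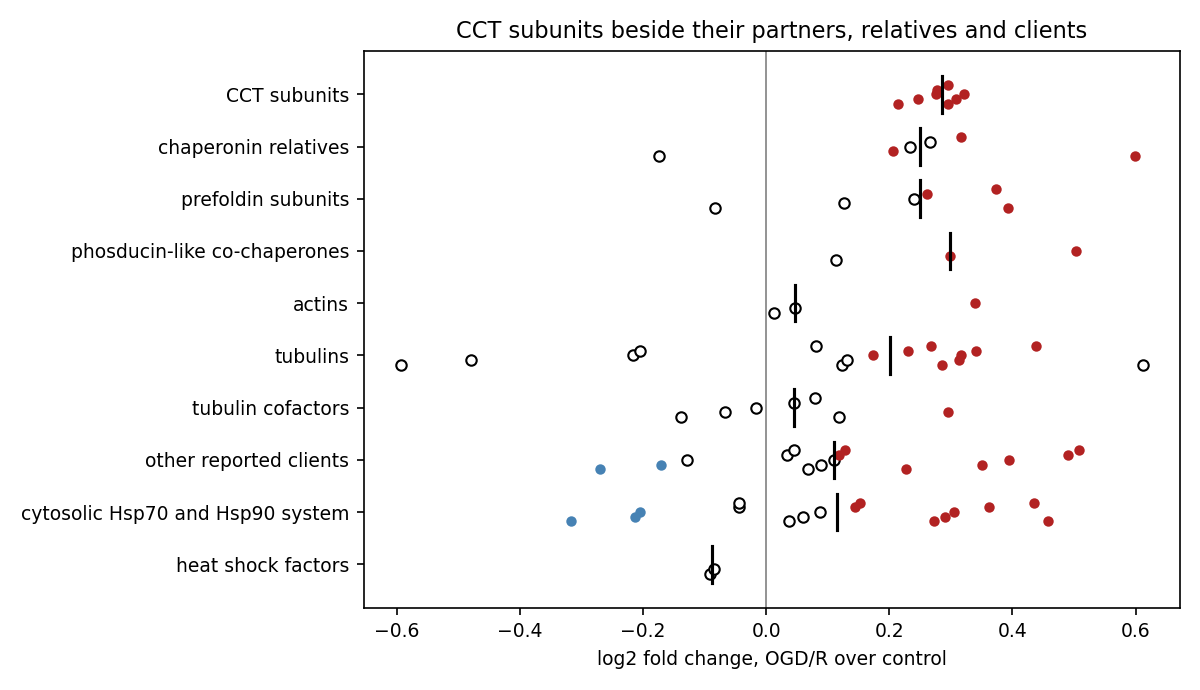
Log2 fold change, OGD/R over control, of the CCT subunit genes (top row) and of 9 lists of related genes; filled points passed the adjusted threshold (red higher, blue lower), open points did not, and the vertical bar is each list's median. The 8 CCT points lie together between 0.21 and 0.32, while the other lists hold open points or points on either side of 0.

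The genes whose pattern over the 6 libraries was most like the mean standardised profile of the 8 subunits, among those of at least 5 CPM, were TPM3, PSMB9, B3GNT9, COX7A2 and PSMC2. Their Pearson coefficients with that profile lay between 0.9982 and 0.9995 over 6 libraries, given as a description, since all of these values share the group difference. TPM3, a tropomyosin that coats actin filaments, was at 796, 833 and 861 CPM after OGD/R and at 614, 657 and 604 CPM in control. PSMB9 and PSMC2 encode an immunoproteasome and a proteasome regulatory subunit, with log2 fold changes of 0.86 ± 0.08 and 0.43 ± 0.05. COX7A2, of cytochrome c oxidase, had a log2 fold change of 0.30 ± 0.05, and B3GNT9, a glycosyltransferase, one of 0.26 ± 0.11 that did not pass (edgeR adjusted p = 0.0755).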

How the data were processed

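RNA-seq counts of 6 HBMEC libraries (3 OGD/R, 3 control, grouped by title) were analysed. The deposited table holds raw read counts, 1 row per Ensembl gene. Per the submitters' processing notes, Trimmomatic, HISAT2, SAMtools, featureCounts and edgeR were used, with no versions, and the build is given as GRCm38, a mouse build, while the deposited IDs are human. The build, the strand setting, multi-mapping rule and low-count filter behind the counts are not given in the sources used here; every gene had at least 10 counts in 3 libraries.

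Counts were TMM-scaled and tested over all 17104 genes with edgeR 4.0.16 (R 4.3.3; robust quasi-likelihood test, two-sided, Benjamini-Hochberg, threshold 0.05, filterByExpr with a minimum of 10 counts, which removed 0 genes). SE came from the fold change and the F statistic. Alternatives used DESeq2 1.42.0, limma 3.58.1 and mgcv 1.9.3. Symbols matched 17093 IDs, and transcript lengths (GENCODE 29) were known for 96.6%. Fits were tested on simulated data.

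The 8 members, the related lists and markers were chosen with earlier results of these data known. Named genes are the members, up to 3 called genes of each list with the smallest p, 9 fixed by name, annotated neighbours within 5 kb, and the 5 most similar genes; others were named after their values were seen. Deviations of same-numbered libraries correlated only weakly, which does not exclude pairing, and the numbers were not taken as pairs.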

Additional observations from a re-analysis of the deposited data

How the results depend on the processing

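All 8 CCT genes passed as higher, and 0 as lower, in each of 17 alternatives: other scalings, DESeq2, limma-voom, other filters, no mitochondrial genes, the length and GC correction, the replicate block, and each library left out. Their lowest log2 fold changes were 0.14 to 0.27 and their highest 0.24 to 0.34. The summed level, recomputed only under the 3 other scalings and with each library left out, had a log2 ratio of 0.25 to 0.31. Dropping the filter left the tested genes as they were. Each library left out in turn gave 1293 to 1840 higher and 1079 to 1527 lower genes overall; without control replicate 3 the lower count was 1079, against 1621 with all libraries. Among the 74 related genes, 9 were lower after the length and GC correction, also with the replicate block (9), against 5 without it; the cause was not tested. CCT6B ranged from -0.70 (without OGD/R replicate 3) to 0.62 with single libraries left out, at under 1 CPM on average, where few reads limit precision. The replicate number as a block gave 1827 higher and 1702 lower genes and changed no call of a CCT gene. Deviations of same-numbered libraries correlated at 0.01, 0.02 and 0.03, and those of differently numbered libraries at -0.020 to 0.003. Values this small over all genes, with 3 libraries a group, cannot settle whether the libraries are paired.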
